A study of Mus musculus with 4 samples.

Results

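The respiratory chain genes of this series were the 101 genes of the table whose symbols start with mt-Nd, mt-Co, mt-Atp, mt-Cytb, Ndufa, Ndufb, Ndufc, Ndufs, Ndufv, Uqcr, Cox4, Cox5, Cox6, Cox7, Cox8 or Atp5, out of 27998 genes in all. Of these, 13 are encoded by the mitochondrial genome (the mt- members) and 88 by the nuclear genome. By complex, the nuclear members comprised 36 subunits of complex I, 8 of complex III, 20 of complex IV and 15 of complex V. The other 9 were 7 complex I assembly factors (Ndufaf genes) and 2 further genes with an Atp5 name. The cells came from malignant pleural effusions of C57BL/6 mice carrying Lewis lung carcinoma (LLC), a mouse lung cancer line, and were measured by droplet single-cell RNA sequencing. Mice received an injection into the pleural cavity on day 11, and the fluid cells were taken on day 13, 48 h later, after lysis of red blood cells. The 4 groups were PBS, LNP-cGAMP (1 µg, a lipid nanoparticle form of the STING agonist cGAMP, also named LNP-CDN in the labels), an anti-PD-L1 antibody (clone 10F.9G2, 30 µg), and both agents at these doses, called the combination. Values given for all libraries without naming them are in this order. Each group was 1 library, pooled from 3 mice, with 4000 cells loaded, so no difference has a replicate check. No test was run and no p-value is given. All intervals are exact 95% intervals that cover counting error only.

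The respiratory chain sits in the inner mitochondrial membrane. Complexes I, III and IV pass electrons from NADH to oxygen and pump protons, and complex V, the ATP synthase, uses the proton gradient to make ATP. The mitochondrial genome encodes the most hydrophobic subunits of these complexes, while the nuclear genome encodes all the others, among them every subunit of complex II. In macrophages, inflammatory activation is known to shift energy production from respiration towards glycolysis, and neutrophils hold few mitochondria.

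All 13 mt- members lie on chromosome M of GRCm38, 12 on the forward strand and mt-Nd6 on the reverse strand. Some overlap their neighbour, mt-Atp8 and mt-Atp6 by 43 bases, mt-Nd4l and mt-Nd4 by 7 bases and mt-Atp6 and mt-Co3 by 1 base, and reads in the shared bases cannot be told apart. mt-Nd5 and mt-Nd6 overlap by 14 bases on opposite strands. The nuclear genome also carries copies of parts of the mitochondrial genome, and how the deposited counts treat reads that match both was not tested. The assay reads transcripts near their 3′ end. The last 60 bases of the annotated transcripts (GENCODE M21, forward strand) are shown for the pair of members that stood lowest after LNP-cGAMP in monocytes and macrophages and the pair that differed least there, with the bases of the stop codon held by the gene in capitals. Mature RNAs may end past the annotated gene, and where they end was not examined.
mt-Nd3: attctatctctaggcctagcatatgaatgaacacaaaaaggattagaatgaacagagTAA
mt-Nd1: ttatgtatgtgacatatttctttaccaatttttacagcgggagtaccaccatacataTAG
mt-Co1: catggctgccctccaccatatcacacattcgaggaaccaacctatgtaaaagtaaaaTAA
mt-Nd5: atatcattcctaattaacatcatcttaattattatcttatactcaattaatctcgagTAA
The first is chrM:9747-9806, the second chrM:3648-3707, the third chrM:6813-6872 and the fourth chrM:13506-13565. All 4 hold a full stop codon. In mt-Co3, mt-Nd4 and mt-Cytb the gene holds 1 base of it, and polyadenylation completes the codon.

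Cells were assigned to classes by a gate of 8 marker genes a class, none of them a respiratory chain gene (6 of the 8 T cell genes are in the table). After filtering, 2834, 3839, 3390 and 3521 cells remained by library, with a median of 16423 to 18737 UMIs (unique molecular identifiers, each standing for 1 captured RNA molecule) per cell, and 4.69% to 7.11% of cells matched no class. Only monocyte/macrophage, neutrophil and T cell gates held at least 50 cells in every library. Marker genes left out of the gate (Lyz2, Cd68, Apoe and Cd14 for macrophages, Mmp9, Lcn2, Trem1 and Stfa2l1 for neutrophils, Cd8a, Cd4, Il7r and Tcf7 for T cells) summed higher in their own class than in the other two classes in every library. Between 21 and 25 barcodes of a library also occurred in another library. The labels give no sex, and the pools differed in sex-linked transcripts. Among monocytes and macrophages, 0 cells had Xist without a Y-linked UMI with PBS and after LNP-cGAMP, against 60.7% after the antibody and 58.6% after both. Comparisons across that line therefore also compare pools of different make-up, and the part of sex in them cannot be told apart from treatment. Some values are also given for cells called male (a Y-linked UMI and no Xist). This call can rest on 1 UMI and does not settle the sex of a cell. The cells called male also still come from different pools. Levels are given as CPM, the UMIs of a gene per 1000000 UMIs of all cells of a class in a library, or as the percentage of those UMIs. Log2 ratios were taken of CPM + 10, which shrinks the ratios of low genes. A gene counts as higher or lower when this ratio passes 1.5-fold in size, while folds are ratios of plain CPM. In the monocyte/macrophage gate 11 mt- and 73 nuclear members passed the filter on low values, in the neutrophil gate 10 and 68, and in the T cell gate 12 and 76. mt-Nd6, which encodes a complex I subunit, passed in none of these classes (3.88 to 5.06 CPM in macrophages), and mt-Atp8 of complex V passed in T cells only (6.82 to 16.7 CPM in macrophages). Also passed in none were 8 complex IV isoforms (Cox4i2, Cox6a2, Cox6b2, Cox7a1, Cox7b2, Cox8b, Cox8c and Ndufa4l2), the assembly factors Ndufaf5 and Ndufaf6, and Atp5s and Atp5sl.

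In monocytes and macrophages, the mt- members took a smaller share of UMIs after LNP-cGAMP, while the nuclear members differed little. The mt- share was 3.37% for PBS (1675 cells) and 1.18% for LNP-cGAMP (2221 cells), 3.26% for anti-PD-L1 (2055 cells) and 2.51% for both agents (2584 cells). LNP-cGAMP stood lowest by far, the combination lay in between, and PBS and anti-PD-L1 were close together. The nuclear share was 2.22%, 2.01%, 2.26% and 2.29% in the same order. The mt- to nuclear ratio was thus 1.51, 0.587, 1.44 and 1.095, and its interval for LNP-cGAMP was 0.585 to 0.589. Cell by cell, the median mt- share was 3.30% under PBS, 1.05% under LNP-cGAMP, then 3.19% under anti-PD-L1 and 2.11% under both. The quartiles of LNP-cGAMP (0.646% to 1.62%) did not reach those of PBS (2.82% to 3.77%), whereas those of the combination (1.20% to 3.19%) did. In LNP-cGAMP 47.4% of the cells had under 1% mt- UMIs, against 1.13% in PBS, 0.925% after the antibody and 18.4% after both.

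**Figure D1:**
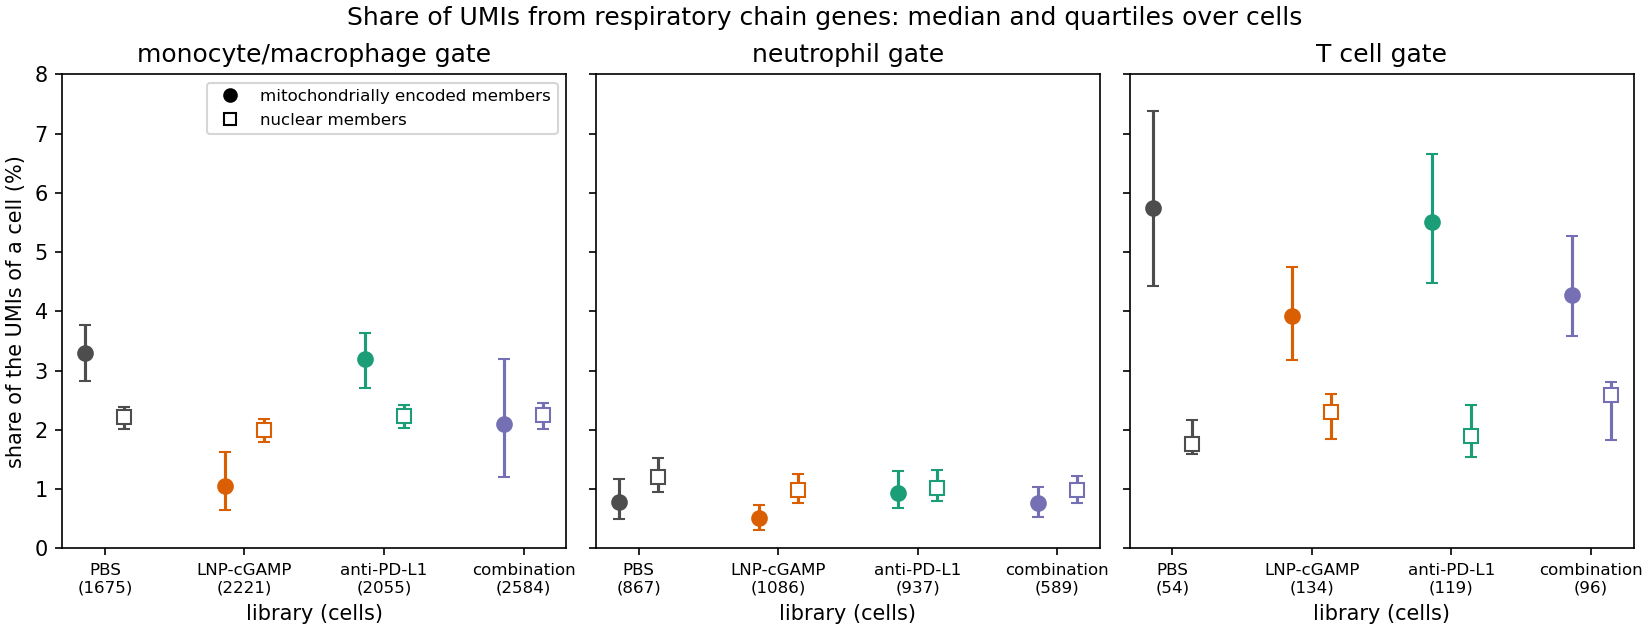
Share of each cell's UMIs from mitochondrially encoded members (filled circles) and nuclear members (open squares) by library in 3 cell classes, as median with the lower and upper quartile over cells, with the number of cells under each library. In the monocyte/macrophage gate the LNP-cGAMP library has a median mitochondrially encoded share of 1.05%, against 3.30% in PBS, while the nuclear medians lie close together.

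The limit of 10% mt- UMIs per cell acts on these genes directly. It removed 207 cells of the monocyte/macrophage gate with PBS, 33 after LNP-cGAMP, 20 after the antibody and 123 after both. With a limit of 20% the mt- share came to 3.54%, 1.20%, 3.27% and 2.54%, and with no limit to 3.89%, 1.21%, 3.30% and 2.73%. The order of the libraries was the same under each limit, with LNP-cGAMP lowest. The depth of the cells moved with treatment too: the median gated cell held 34026 UMIs for PBS and 20722 for LNP-cGAMP, then 32294 for the antibody and 21844 for both agents. Per cell, the median number of mt- UMIs was 1110, 214, 1015 and 391.5, and that of nuclear members 764, 428, 716 and 489. Barcodes of 10 to 100 UMIs, which hold mostly free RNA, had an mt- share of 2.92% under PBS, 1.00% under LNP-cGAMP, then 2.72% under anti-PD-L1 and 1.20% under both. The free RNA thus differed in the same direction as the cells, and its part in the result was not tested beyond subtraction. The log2 ratio of the mt- sum of LNP-cGAMP against PBS was -1.52, and -1.69 to -1.37 over 11 other ways of processing, subtraction of free RNA among them. Red cell genes moved with the libraries too, at 96.9, 4.94, 4.84 and 50.6 CPM in this gate (7 of 8 genes found in the table), and neutrophil markers stood at 295, 481, 390 and 334 CPM.

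Every mt- member that passed was lower in LNP-cGAMP than in PBS in monocytes and macrophages, 10 of the 11 by at least 1.5-fold. Of all 5393 genes that passed, 6.56% were lower by this measure and 8.6% were higher. The median log2 ratio of the mt- members was -1.79, against 0.06 for all genes. The size differed widely between members, although the genes on the forward strand are transcribed together as a common precursor RNA.

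Among the complex I subunits, mt-Nd3 (ENSMUSG00000064360) differed most, at 463 CPM with PBS, 56.3 after LNP-cGAMP, 417 after the antibody and 272 after both. It stood 8.23-fold lower in LNP-cGAMP than in PBS (7.91 to 8.56). mt-Nd1 was at 2462, 484.9, 2292 and 1586 CPM, which is 5.08-fold lower (5.01 to 5.15) in LNP-cGAMP. In both genes LNP-cGAMP stood apart from the other 3 libraries, and the combination lay between it and the libraries without LNP-cGAMP. mt-Nd4 was 3.77-fold, mt-Nd4l 3.69-fold and mt-Nd2 3.54-fold lower in LNP-cGAMP than in PBS. mt-Nd5 was the exception, at 125.6 CPM for PBS and 82.8 for LNP-cGAMP, then 114.8 for the antibody and 116.7 for both agents. Its log2 ratio of -0.55 was the only one of the mt- members short of the 1.5-fold mark.

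mt-Cytb, the cytochrome b of complex III, was at 2862 CPM under PBS, 757 under LNP-cGAMP, then 2606 under anti-PD-L1 and 1865 under both, and so 3.78-fold lower (3.74 to 3.82) in LNP-cGAMP. For complex IV, mt-Co1 (ENSMUSG00000064351), its catalytic subunit, was at 6229, 3774, 6402 and 5639 CPM in the same order, only 1.65-fold lower (1.64 to 1.66). mt-Co2 was 2.73-fold and mt-Co3 3.47-fold lower. For complex V, mt-Atp6, a subunit of the proton channel, was 3.42-fold lower. The 3 members without a full stop codon in the gene (mt-Co3, mt-Nd4 and mt-Cytb, log2 ratios of -1.79, -1.89 and -1.90) lay within the range of the others. Over these 11 members, the log2 ratio had an r of 0.60 and a rho of 0.24 with the length of the gene, as a description.

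**Figure D2:**
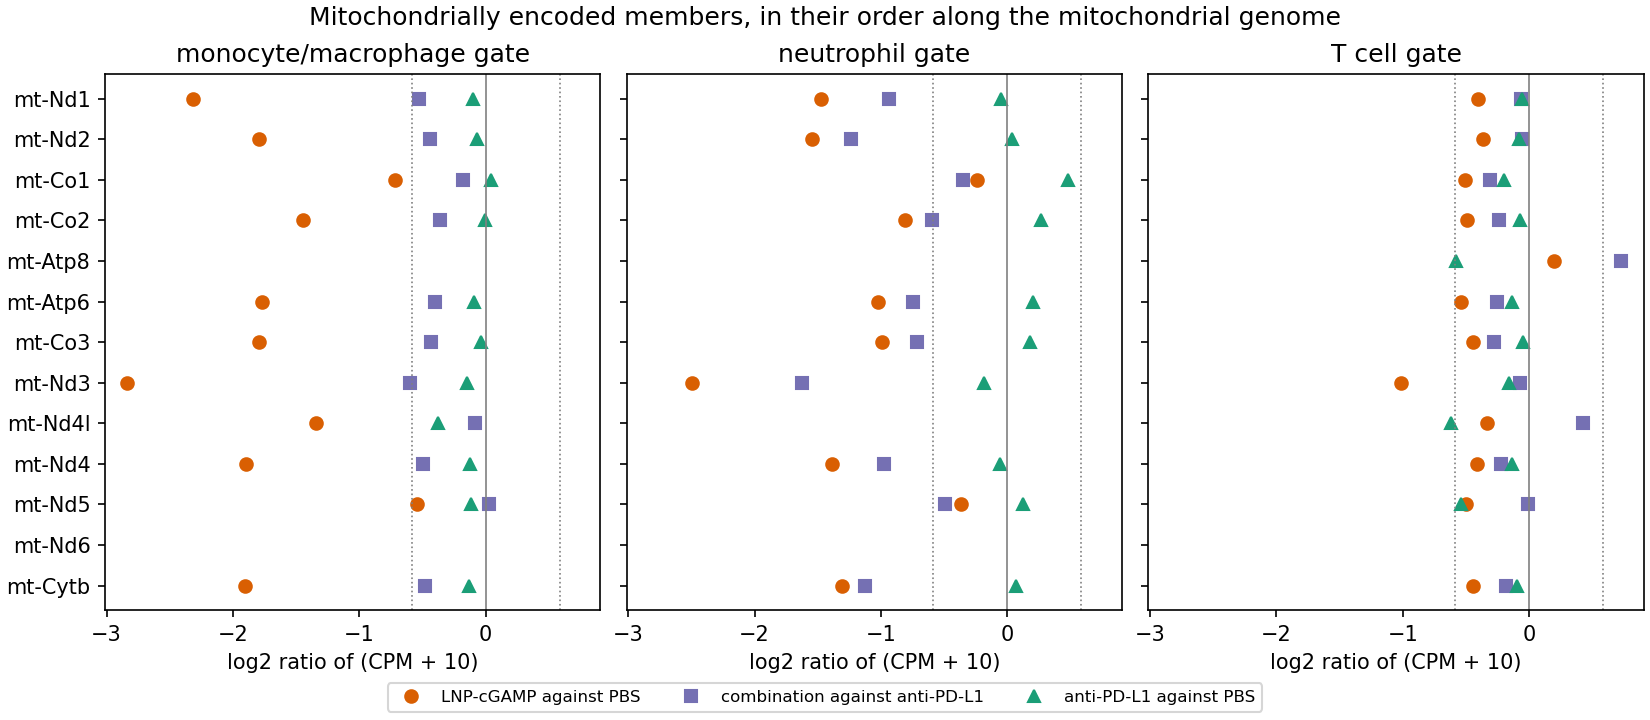
Log2 ratio of (CPM + 10) of each mitochondrially encoded member that passed the filter, in gene order along the mitochondrial genome, for 3 comparisons in 3 cell classes. Dotted lines mark 1.5-fold. In the monocyte/macrophage and neutrophil gates mt-Nd3 stands lowest after LNP-cGAMP, and mt-Co1 and mt-Nd5 lie nearest to 0.

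In the combination the mt- members were lower by less. Against anti-PD-L1 alone, which shares no library with the comparison of LNP-cGAMP and PBS, 10 of 11 stood below 0 but only mt-Nd3 passed 1.5-fold (1.53-fold). There 0.723% of all genes were lower and 1.41% higher. This count moved with the cells used: 7 were lower among cells called male, and 8 among cells between the quartiles of UMI totals. The members nevertheless kept nearly the same order in both comparisons: over the 11 genes, Pearson's r of the log2 ratios was 0.90 and Spearman's rho 0.98, as a description across genes of 1 genome. Against PBS, mt-Nd1, mt-Nd3, mt-Nd4 and mt-Cytb were lower in the combination, 4 of 11 (9 among cells called male), with 1.13% of all genes lower and 2.95% higher. Against LNP-cGAMP alone, 9 of 11 were higher in the combination and none lower, with 2.86% of all genes higher and 1.93% lower, and mt-Nd3 was 4.83-fold higher. Comparisons that share a library are not independent of each other. Anti-PD-L1 alone against PBS gave no mt- member past 1.5-fold in either direction (0.556% of all genes lower, 1.0% higher), and the ratios ran from -0.38 to 0.04.

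Within the combination, macrophage clusters differed in mt- share. Cells were clustered without the respiratory chain genes. In the combination, the clusters led by Lyve1 and Marco, by the cell-cycle genes Ube2c and Birc5, and by haemoglobin genes with Cd163 had mt- shares of 3.55%, 3.51% and 3.11%, close to 3.36%, 3.41% and 3.37% in PBS. LNP-cGAMP alone had 1, 5 and 11 cells in these 3 clusters, too few for a value. Clusters led by Ccl12 and Ms4a7, by Gpnmb and Mrap, and by Fabp5 and Ccl8, of which PBS held 2, 12 and 2 cells, stood at 1.25%, 1.69% and 1.44% in the combination and at 0.830%, 1.28% and 0.841% in LNP-cGAMP. The cluster led by Saa3 and Mmp8, with 0 cells in PBS, stood at 2.12% and 1.40%. Thus the libraries differed both in which clusters they held and in the share within them.

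Only 3 macrophage clusters held at least 20 cells in every library, and in each of them the mt- share was lowest in LNP-cGAMP. In the cluster led by Chil3 and Vcan, genes of recruited monocytes, it was 3.33% with PBS, 2.12% after LNP-cGAMP, 3.02% after the antibody and 2.59% after both. In that led by Cd74 and Retnla it was 3.36%, 1.39%, 3.19% and 2.93%, and in that led by Alox15 and Prg4 3.63%, 1.51%, 3.48% and 2.54%. The nuclear share in these 3 clusters stayed between 1.93% and 2.40% in every library. In LNP-cGAMP the latter pair of clusters held 36 and 24 cells.

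**Figure D3:**
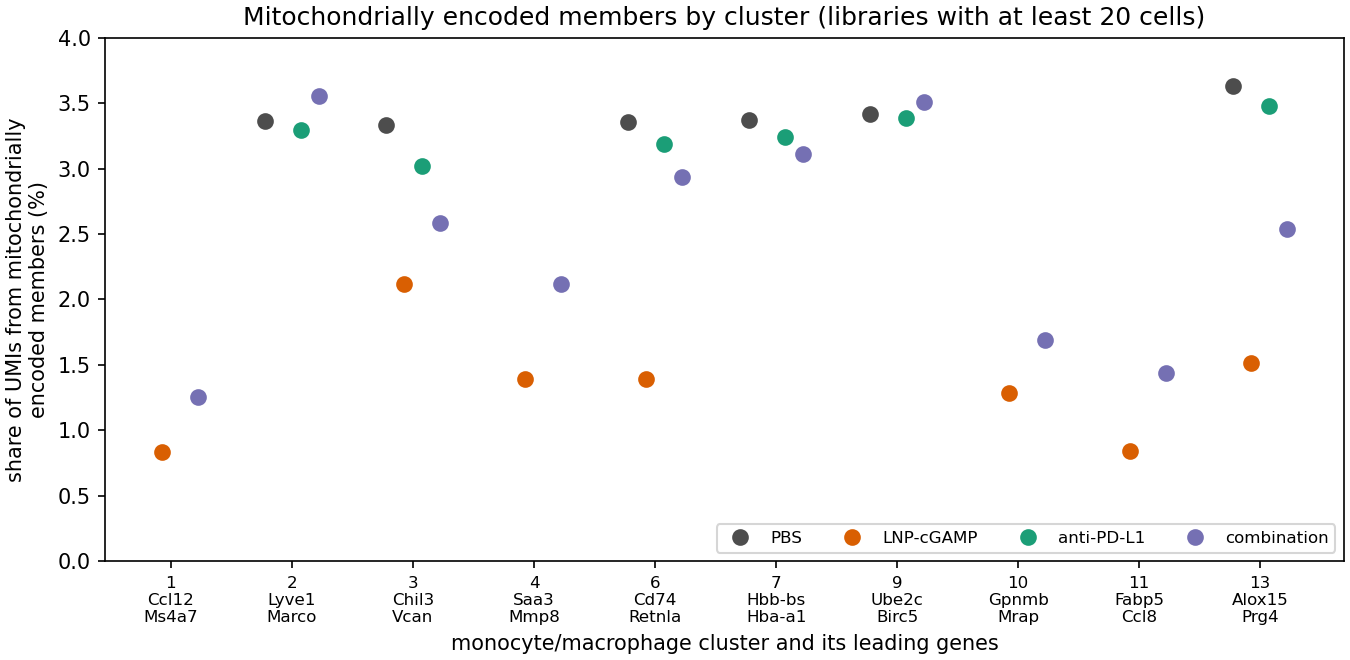
Share of UMIs from mitochondrially encoded members in each monocyte/macrophage cluster, by library, with a point for each library that holds at least 20 cells of the cluster. In the combination the Lyve1 and Ube2c clusters lie near the PBS values at 3.55% and 3.51%, and the Ccl12 cluster lies at 1.25%.

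The share also depended on the UMI total of a cell in a treatment-specific way. Among cells of 1000 to 5000 UMIs it was 3.50% for PBS and 3.64% for LNP-cGAMP, then 3.00% for the antibody and 3.43% for both agents, so the low LNP-cGAMP value was not seen in these 82 cells. The nuclear share of this lowest band was 2.01%, 1.26%, 2.05% and 1.815%, with LNP-cGAMP lowest. Among cells of 10000 to 20000 UMIs the mt- share was 3.30%, 1.24%, 3.07% and 1.91%. Among those of 40000 to 80000 UMIs it was 3.34%, 1.15%, 3.32% and 3.28%, so here the combination was level with PBS. In each of the 4 bands from 5000 to 80000 UMIs, LNP-cGAMP was the lowest library.

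**Figure D4:**
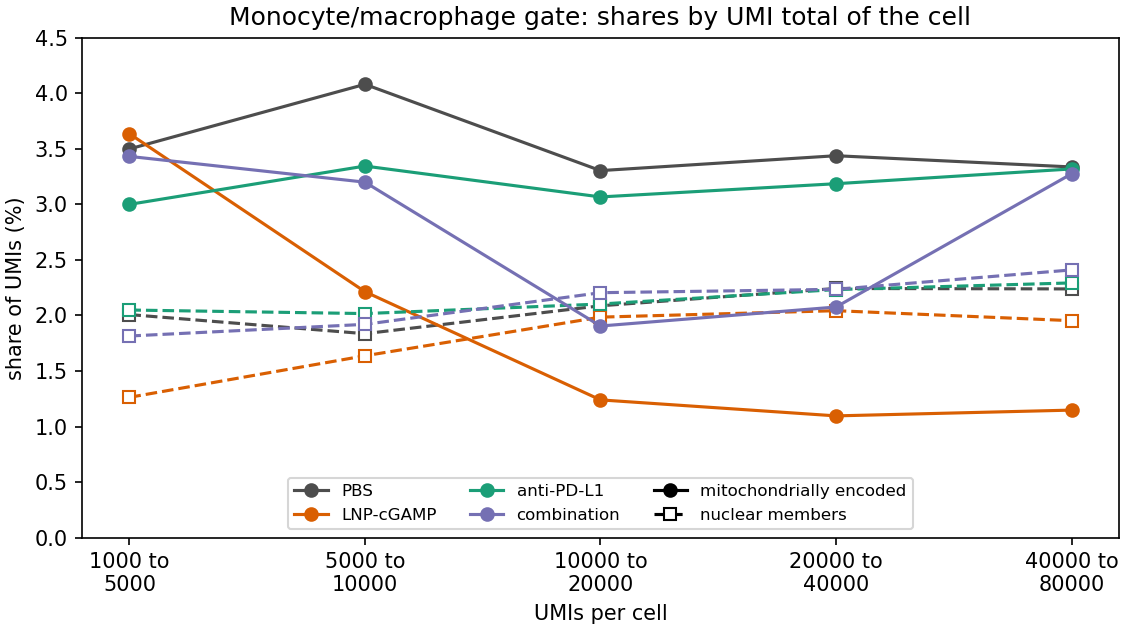
Share of UMIs from mitochondrially encoded members (filled circles, solid lines) and nuclear members (open squares, dashed lines) in monocyte/macrophage-gated cells, by UMI total of the cell and library. The LNP-cGAMP library lies at 3.64% in the lowest band and at 1.15% in the highest, and the combination returns to 3.28% in the highest.

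The nuclear members of monocytes and macrophages showed no difference of this size. Of the 73 that passed, 0 were at least 1.5-fold lower or higher in each of the 5 comparisons. The median log2 ratio of LNP-cGAMP against PBS was -0.14, against 0.06 for all genes, and 50 of 73 lay below 0. By complex, the summed CPM of nuclear subunits in LNP-cGAMP was 0.959 times that of PBS for complex I, 0.856 for complex III, 0.897 for complex IV and 0.861 for complex V. The mt- subunits of the same complexes came to 0.241, 0.265, 0.416 and 0.293 times PBS. Both sets of subunits were therefore lower in each complex, the mt- ones by a much larger factor.

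Among single nuclear genes, Atp5g1, which encodes the ring subunit c of ATP synthase, differed most, at 480 CPM under PBS, 321 under LNP-cGAMP, then 493 under anti-PD-L1 and 413 under both (1.496-fold lower in LNP-cGAMP than in PBS, 1.47 to 1.52, and just short of the mark on the log2 scale). The ring protein is also encoded by Atp5g2 and Atp5g3, and the copies share much of their sequence. Atp5a1, the alpha subunit of the ATP synthase head, was at 465, 324, 449 and 402 CPM. Cox4i1, the nuclear complex IV gene with the highest CPM in this class, was at 889, 722, 896 and 851 CPM. In these 3 genes LNP-cGAMP was the lowest library. On the other side, the assembly factor gene Ndufaf3 was at 32.4, 47.8, 34.1 and 40.6 CPM, Ndufa6 at 147.7, 176.2, 149.8 and 172.5, and Ndufb3 at 126.9, 156.0, 132.8 and 148.2, so both libraries with LNP-cGAMP stood above both without it. Ndufaf3, Ndufa6 and Ndufb3 were picked by a rule that asks for equal sign with and without the antibody, so this agreement is no separate support. The nuclear genes with the highest CPM in the other complexes, Ndufb9, Uqcrb and Atp5e, had log2 ratios of 0.17, -0.25 and -0.14 for LNP-cGAMP against PBS. For anti-PD-L1 against PBS the nuclear ratios ran from -0.14 to 0.16, with Cox7b highest. Cox8a, at 743 CPM in PBS and 828 in anti-PD-L1, was just behind. Cox7b lies on chromosome X, and these pools differed in sex-linked transcripts. Its value in cells called male is not given.

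**Figure D5:**
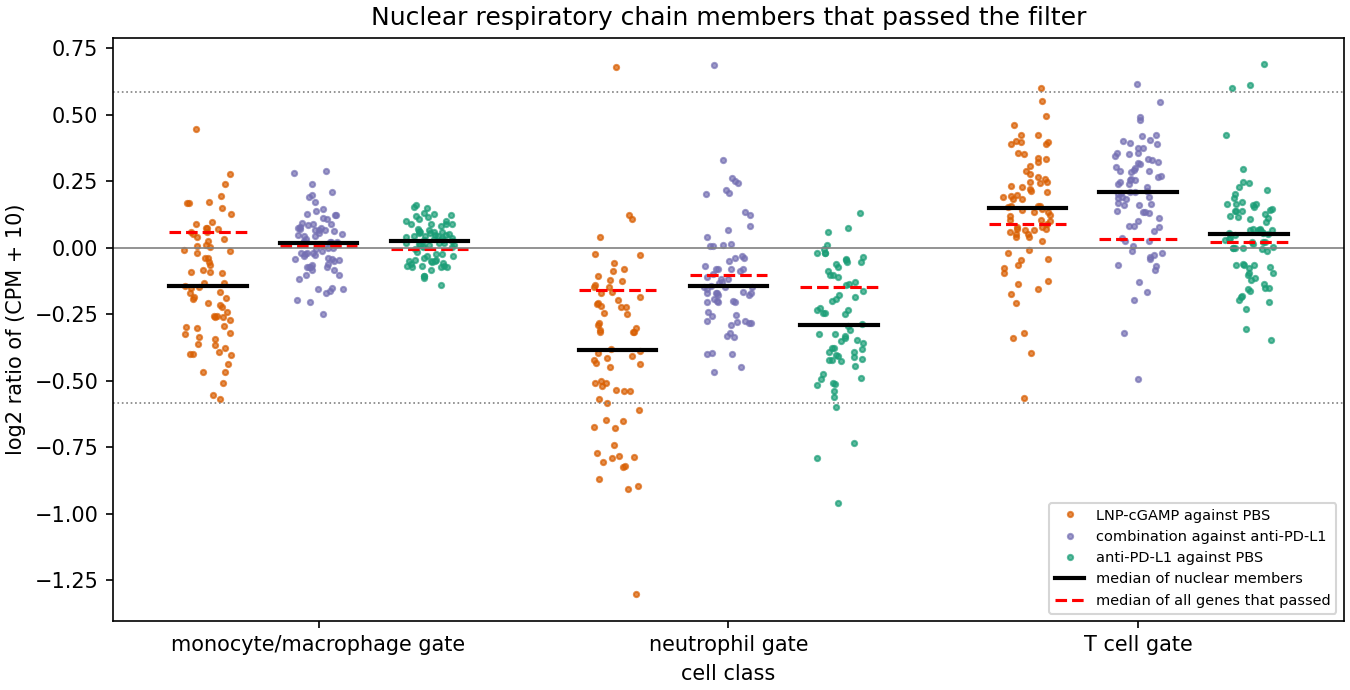
Log2 ratio of (CPM + 10) of each nuclear member that passed the filter, for 3 comparisons in 3 cell classes. Solid bars are the medians of these genes, dashed bars the medians of all genes that passed, and dotted lines mark 1.5-fold. The neutrophil medians lie below those of all genes and the T cell medians above.

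Neutrophils held fewer mt- UMIs. These were lower after LNP-cGAMP as measured, but the direction against PBS turned with one way of removing free RNA. The mt- share was 1.11% with PBS (867 cells), 0.656% after LNP-cGAMP (1086 cells), 1.34% after the antibody (937 cells) and 0.874% after both (589 cells). Both libraries with LNP-cGAMP lay below both without it. The mt- to nuclear ratio was 0.857, 0.633, 1.197 and 0.844, so in this measure the combination was close to PBS. The log2 ratio of these last values was -0.02, with the same sign under 4 of 10 alternatives. Cell by cell, the median mt- share was 0.782%, 0.505%, 0.937% and 0.765%. The median neutrophil held only 17, 12, 22 and 19 mt- UMIs in the same order. Of the 10 mt- members that passed, 8 were lower in LNP-cGAMP than in PBS and 0 higher, with 11.6% of all genes lower and 5.1% higher. Against anti-PD-L1 alone, 8 of 10 were lower in the combination, with 3.53% of all genes lower and 2.54% higher. Against PBS, 5 of 10 were lower in the combination, where 16.3% of all genes were lower and 3.7% higher. Anti-PD-L1 against PBS gave 0 of 10 in either direction, where 7.76% of all genes were lower and 2.42% higher. Against LNP-cGAMP alone, mt-Nd3 was the 1 mt- member higher in the combination and 0 nuclear members passed, where 4.5% of all genes were lower and 1.21% higher.

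mt-Nd3 was again the lowest, at 106 CPM for PBS and 10.6 for LNP-cGAMP, then 92.0 for the antibody and 23.1 for both agents, from 225, 32, 229 and 37 UMIs. It was found in 131 of 867 PBS neutrophils and in 27 of 1086 LNP-cGAMP neutrophils. mt-Cytb was at 782, 310, 823 and 372 CPM, 2.52-fold lower (2.33 to 2.73) in LNP-cGAMP than in PBS. mt-Nd2 was 3.19-fold, mt-Nd1 2.93-fold, mt-Nd4 2.68-fold, mt-Atp6 2.04-fold, mt-Co3 2.00-fold and mt-Co2 1.76-fold lower. mt-Co1, at 3369, 2850, 4698 and 3689 CPM, was 1.18-fold lower (1.15 to 1.22), and it and mt-Nd5 were the pair short of 1.5-fold. The order of the members thus resembled that in macrophages, with r of 0.94 and rho of 0.89 over the 10 genes that passed in both classes. Within neutrophils the order was alike between the comparisons that share no library (r of 0.97, rho of 0.95). These are descriptions across genes of the same libraries. Subtraction of free RNA changed the picture against PBS. When its share was set from the markers of all other classes, it came to 32.5% of neutrophil UMIs for PBS and 10.6% to 12.2% in the other libraries. The log2 ratio of the mt- sum of LNP-cGAMP against PBS then turned from -0.76 to 1.01, with 1 of the mt- members lower and 6 higher. Red cell genes enter that estimate: neutrophils of PBS carried 1486 CPM of the 7 found in the table, against 2.50 to 7.97 CPM elsewhere. When lists above their level in near-empty barcodes were left out, a choice made after seeing the data, the share for PBS was 16.9%, the log2 ratio was -0.28 and 4 members were lower. The comparison of the combination with anti-PD-L1, which does not use PBS, kept its sign under both.

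The values of the combination rest on leaving out 3 barcodes. These neutrophil-gated barcodes, above the 10% limit, had a median mt- share of 48.5% and together 25502 mt- UMIs, more than the 13969 of all 589 neutrophils kept. With them the mt- log2 ratio of the combination against anti-PD-L1 turned from -0.61 to 0.66, and with the 20% limit, which also leaves them out, it was -0.65. Macrophage markers in this gate stood at 1281, 841, 662 and 1063 CPM. Their part in the results was not tested. Within clusters, the mt- share in the neutrophil cluster led by Retnlg and S100a9 was 0.983% under PBS, 0.707% under LNP-cGAMP, then 1.08% under anti-PD-L1 and 0.824% under both. In that led by Mmp9 and Stfa2l1 it was 0.853%, 0.563%, 1.03% and 0.690%.

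Most nuclear members of neutrophils lay below PBS in each treated library, 64 of 68 in each of the 3 comparisons, as did the median of all genes. Their share was 1.30% with PBS, 1.04% after LNP-cGAMP, 1.12% after the antibody and 1.04% after both, with PBS highest. In LNP-cGAMP against PBS 17 of 68 were lower and 1 higher, beside 11.6% of all genes lower, with a median log2 ratio of -0.38 against -0.16 for all genes. In the combination against PBS 16 were lower and 0 higher, beside 16.3% of all genes lower (median -0.36, all genes -0.26). In anti-PD-L1 against PBS 4 were lower and 0 higher, a smaller share than the 7.76% of all genes (median -0.29, all genes -0.15). Other lists lay below 0 in LNP-cGAMP against PBS too, with medians of -0.45 for 12 housekeeping genes, -0.48 for 14 glycolysis genes, -0.45 for 8 import and membrane genes and -0.29 for 32 mitochondrial ribosome genes. In the combination against anti-PD-L1 0 were lower and 1 higher, and the 3 comparisons with lower genes all share the PBS library. The counts moved with the scaling: with median-of-ratios scaling, 2 of 68 instead of 16 were lower in the combination against PBS. With free RNA subtracted from all lists, 2 were lower and 14 higher in LNP-cGAMP against PBS. The 8 neutrophil gate markers, S100a8 and S100a9 among them, summed to 128800 CPM for PBS and 165800 for LNP-cGAMP, then 155300 for the antibody and 201200 for both agents, and their part in these counts was not tested.

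Atp5g1 was the lowest nuclear gene in neutrophils as in macrophages, at 140.7 CPM under PBS, 51.1 under LNP-cGAMP, then 67.5 under anti-PD-L1 and 55.7 under both (2.75-fold lower in LNP-cGAMP than in PBS, 2.26 to 3.37). PBS stood apart from all 3 treated libraries. Atp5o, a stalk subunit of ATP synthase, was at 100.6, 56.1, 80.8 and 55.7 CPM, and Ndufs8, an iron-sulfur subunit of complex I, at 51.0, 28.9, 25.3 and 21.3. Uqcrfs1, the Rieske iron-sulfur protein of complex III, was at 73.2, 52.1, 53.5 and 38.2 CPM. Among those with the highest CPM, Cox8a was at 946, 758, 907 and 827 CPM, Atp5l at 646, 574, 626 and 565, and Ndufb9 at 338, 310, 333 and 334.

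Cox7a2l (ENSMUSG00000024248, chromosome 17, 83501918 to 83517330, GRCm38), counted here among the complex IV genes, went the other way in neutrophils. It was at 80.3 CPM with PBS, 134.4 after LNP-cGAMP, 70.7 after the antibody and 120.1 after both. Both libraries with LNP-cGAMP were above both without it. The fold was 1.67 (1.40 to 2.02) without and 1.70 (1.38 to 2.10) with the antibody. Cox7a2l was picked by a rule that asks for equal sign in both these pairs of libraries, so their agreement is no separate support. The call in LNP-cGAMP against PBS was lost among cells called male, where 0 nuclear members were higher. UMIs of it came from 128 of 867, 290 of 1086, 132 of 937 and 149 of 589 neutrophils, and at most 11 came from 1 cell. In macrophages the same gene was at 141.5, 123.4, 151.1 and 157.6 CPM, and in T cells at 314, 246, 317 and 223 CPM, where both libraries with LNP-cGAMP were lower.

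Promoters of 300 bases (250 before to 50 after the start, RefSeq, GRCm38.p6) were found for 70 of the 88 nuclear members. They were searched for motifs of known regulators of respiratory genes, without a test. The core motif of NRF1, CGCATGCG, lay in 11 of the 70 (15.7%) against 2.07% of 27025 genes, and the YY1 motif CGCCATNTT in 10 (14.3%) against 2.76%. The ETS motif CCGGAAGT was in 5 (7.14%) against 4.31% and the ERR motif TCAAGGTCA in 1 (1.43%) against 0.466%. CCAAT was about as frequent in both, in 30 (42.9%) against 41.1%. Both strands were searched, each motif by itself, so matches may overlap. A match is a description and not evidence of binding. The promoters of Uqcr11 and Atp5g2, chosen after their values were seen because they were lower in neutrophils after LNP-cGAMP (1.86-fold and 1.82-fold against PBS), are shown with that of Cox7a2l, which was higher. Capitals mark the NRF1 core in the first and second and, upstream of it in the first, the ETS motif. The third holds none of the NRF1, YY1, ETS and ERR motifs in this window.
Uqcr11: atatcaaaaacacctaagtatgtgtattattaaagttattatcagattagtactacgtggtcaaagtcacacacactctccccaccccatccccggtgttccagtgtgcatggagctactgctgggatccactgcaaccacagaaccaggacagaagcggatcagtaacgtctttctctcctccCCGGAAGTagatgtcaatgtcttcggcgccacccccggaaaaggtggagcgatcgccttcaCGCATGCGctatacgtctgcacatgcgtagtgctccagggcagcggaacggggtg
Atp5g2: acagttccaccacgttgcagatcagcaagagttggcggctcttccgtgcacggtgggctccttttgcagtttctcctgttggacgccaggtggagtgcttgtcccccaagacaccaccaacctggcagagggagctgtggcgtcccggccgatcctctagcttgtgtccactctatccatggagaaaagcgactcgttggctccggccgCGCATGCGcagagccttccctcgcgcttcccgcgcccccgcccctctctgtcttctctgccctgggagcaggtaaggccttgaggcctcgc
Cox7a2l: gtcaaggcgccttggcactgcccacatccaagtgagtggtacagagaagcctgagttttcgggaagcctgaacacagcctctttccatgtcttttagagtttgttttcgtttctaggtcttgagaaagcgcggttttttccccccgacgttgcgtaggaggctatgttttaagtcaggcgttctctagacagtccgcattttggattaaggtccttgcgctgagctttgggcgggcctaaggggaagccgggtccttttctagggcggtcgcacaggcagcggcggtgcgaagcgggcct
They lie on the reverse strand, at chr10:80406772-80407071, chr15:102670998-102671297 and chr17:83514284-83514583. The windows of Atp5g2 and Cox7a2l lie inside the annotated genes, which reach 102672352 and 83517330, and starts further upstream were not searched. Uqcr11, a small complex III subunit, and Atp5g2 had the motif shared with Atp5j, Atp5k, Atp5l, Cox6a1, Ndufa8, Ndufa11, Ndufaf4, Ndufaf5 and Uqcrc1. The promoters of Atp5g1, Atp5o, Ndufs8 and Uqcrfs1, also below PBS in neutrophils after LNP-cGAMP, held none of the NRF1, YY1 and ETS motifs. Whether a motif goes with the direction of a gene was not tested.

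T cells held the highest mt- share of the 3 classes, and the direction was the same but smaller. The mt- share was 5.15% for PBS (54 cells) and 3.70% for LNP-cGAMP (134 cells), 4.78% for anti-PD-L1 (119 cells) and 4.08% for both agents (96 cells). The nuclear share was 2.26%, 2.47%, 2.35% and 2.67%, and thus ran opposite, with both libraries that had LNP-cGAMP lowest in the mt- and highest in the nuclear share. In LNP-cGAMP against PBS 11 of 12 mt- members lay below 0, and mt-Nd3 alone passed 1.5-fold, at 669, 327, 600 and 571 CPM (2.05-fold lower, 1.81 to 2.31). The count moved with the processing, to 5 with median-of-ratios scaling and 3 with each cell weighted equally. The other members on that side were 1.29-fold to 1.45-fold lower, with mt-Atp6 at 9721 and 6704 CPM and mt-Co3 at 11240 and 8282. There 5.71% of all genes were lower and 8.84% higher. Of the nuclear members, 0 of 76 were lower and 1 was higher, Atp5o at 261, 401, 311 and 402 CPM (1.53-fold higher, 1.29 to 1.84). This call was lost with CPM over nuclear-encoded genes, with median-of-ratios scaling and with classes from clusters. Against anti-PD-L1 alone, mt-Atp8 was the 1 mt- member higher in the combination, from 19 and 57 UMIs, and Atp5k the 1 nuclear member, with 5.09% of all genes lower and 3.66% higher. Anti-PD-L1 against PBS had mt-Nd4l lower and 3 nuclear members higher (Uqcrfs1, Ndufs8 and Ndufv1), with 3.38% of all genes lower and 4.81% higher. The combination against PBS had 0 mt- members past the mark and 6 nuclear members higher (Ndufa8, Ndufb2, Ndufv1, Uqcrfs1, Atp5k and Atp5o), with 8.63% of all genes lower and 10.0% higher. These share the PBS library of 54 cells, and 0 nuclear members were higher in either with classes from clusters. The nuclear genes of these comparisons were named from the calls, after their values were seen. Against LNP-cGAMP alone, mt-Nd3 was the 1 member higher in the combination, with 1.87% of all genes lower and 0.533% higher.

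The T cells differed in depth and kind between libraries. The median T cell held 6026 UMIs under PBS, 13465 under LNP-cGAMP, then 7169 under anti-PD-L1 and 16368 under both. Among T cells of 5000 to 10000 UMIs (21, 38, 40 and 24 cells) the nuclear share was 1.86%, 1.84%, 1.73% and 1.77%. The mt- share there was 5.41%, 4.96%, 6.12% and 5.21%. Among those of 1000 to 5000 UMIs (20, 12, 32 and 11 cells) the nuclear share was 1.62%, 1.91%, 1.57% and 1.71%. So the higher nuclear share with LNP-cGAMP was seen in the lower of these bands only. A cluster led by Gzmb and Cd8b1 held 16, 158, 54 and 110 cells, and a cluster led by Il7r, Tcf7 and Bcl2 held 67, 83, 96 and 51. Within the latter the mt- share was 5.76% with PBS, 4.21% after LNP-cGAMP, 5.25% after the antibody and 5.09% after both, and the nuclear share 1.87% to 1.92%. In the Gzmb cluster it was 3.34% after LNP-cGAMP, 4.28% after the antibody and 3.86% after both. The nuclear share in the Gzmb cluster was 2.53% to 2.67% in these libraries, above that of the Il7r cluster. Gate markers of NK cells in the T cell gate stood at 481, 936, 548 and 1189 CPM, and those of macrophages at 446, 237, 246 and 308 CPM. NK cell markers left out of the gate (Nkg7, Klrd1, Tbx21 and Xcl1) summed to 1778, 2974, 2235 and 2804 CPM there. The T cell markers left out of the gate summed to 811, 768, 806 and 658 CPM. The part of these markers was not tested. The order of the mt- members in T cells was unlike that in macrophages, with an r of 0.45 and a rho of -0.07 over 11 genes.

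Tissue-specific isoforms of complex IV were nearly silent. Cox4i1, Cox6a1, Cox6b1, Cox7a2 and Cox8a, the forms found in most tissues, passed the filter in all 3 classes. In macrophages Cox8b, the heart and muscle form, had 0 UMIs in all libraries (a count of 0 allows up to 0.0607 CPM in the smallest), and Cox7a1 stood at 4.74 to 7.94 CPM. Ndufa4l2 had 62 UMIs in the neutrophils of anti-PD-L1 and 0 in the other 3 libraries, and all 62 came from 1 cell. A count of 0 allows up to 3 UMIs, which is 1.42, 0.996 and 1.88 CPM in the neutrophils of PBS, LNP-cGAMP and the combination.

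Other mitochondrial and energy genes had few members past 1.5-fold in macrophages, beside 6.56% of all genes lower and 8.6% higher. Of Sdha, Sdhb, Sdhc and Sdhd of complex II, Cycs (cytochrome c) and Cyc1, 0 of 6 were past 1.5-fold in LNP-cGAMP against PBS (median -0.13). Cyc1 encodes cytochrome c1 of complex III, which the symbol rule left out of the members. Of the mitochondrial ribosomal proteins 1 of 71 was higher and 1 lower (median 0.05). Of the genes for upkeep and transcription of mitochondrial DNA, 4 of 14 in the table passed (Polg, Ssbp1, Lrpprc and Slirp), and 0 were past 1.5-fold. Tfam, which packages mitochondrial DNA and starts its transcription, was at 16.9, 21.6, 16.8 and 17.8 CPM, and Polrmt, the mitochondrial RNA polymerase, at 5.80, 6.55, 4.76 and 5.81, both under the filter of 20 CPM. Citric acid cycle genes had 1 of 12 lower (Idh3a) and glycolysis genes 0 of 14 in either direction. Of the import and membrane genes 1 of 14 was lower, Slc25a4, an ADP/ATP carrier of the inner membrane, at 163 CPM for PBS and 42.6 for LNP-cGAMP, then 169 for the antibody and 110 for both agents. Of the mitophagy genes, Sqstm1 (p62) was higher, 1 of 6. Of 9 stress and chaperone genes, Ddit3 (CHOP), a transcription factor of the stress response, was higher at 10.1, 40.8, 10.5 and 28.4 CPM, and Hspa9, a matrix chaperone, was lower at 153, 95.8, 144 and 112. Hif1a, the hypoxia-inducible factor that favours glycolysis, was the 1 of 5 coactivators and factors that was higher, at 161, 261, 171 and 190 CPM.

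In neutrophils Ddit3 was higher as well, at 79.3 CPM under PBS, 216 under LNP-cGAMP, then 74.8 under anti-PD-L1 and 189 under both. Of the 5 stress and chaperone genes that passed in neutrophils, it was the 1 higher in LNP-cGAMP against PBS, and 2 were lower (Hspe1 and Hspa9). Of all genes 5.1% were higher and 11.6% lower. The median log2 ratio of these 5 was -0.46, against -0.16 for all genes. In the combination against PBS 1 was higher and 3 were lower, beside 3.7% and 16.3% of all genes. Of 14 glycolysis genes there, 5 were lower in LNP-cGAMP against PBS, beside 11.6% of all genes. In the combination, 0 of 14 were lower against PBS (16.3% of all genes) or against anti-PD-L1 (3.53%). Against anti-PD-L1, 1 was higher (2.54% of all genes). In T cells 7 of 13 glycolysis genes were higher in LNP-cGAMP against PBS, beside 8.84% of all genes, with a median of 0.62 against 0.09 for all genes. Of the Sdh genes, Cyc1 and Cycs in T cells, 2 of 6 were higher.

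Over the 12 points given by 3 classes and 4 libraries, the genes whose log2 CPM was most like the summed mt- CPM were Rpl10a (Pearson's r of 0.97), Rps28, Rpl3, Rpl22l1 and Pabpc1 (0.96), 4 ribosomal protein genes and a poly(A)-binding protein gene. Among nuclear members Atp5g2, Uqcrc2 and Cox6c were the most alike (0.93, 0.92 and 0.92), and Ndufa7 the least (-0.77). The median r was 0.84 over 68 nuclear members and 0.26 over 3008 genes. The points share libraries and differ above all between classes, so these values are a description.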

How the data were processed

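The deposited values are UMI counts per gene and barcode in unfiltered 10x matrices. Per the file headers, the authors ran Cell Ranger 3.0.2, on the mouse build mm10, per the submitters' processing notes. The labels give the kit version in conflicting ways, and whether counting used strand is not given in the sources used here. Barcodes were kept at or above the density minimum of each library (937 to 1116 UMIs), with at least 200 genes and at most 10% mt- UMIs. No doublet caller was run, so doublets were not removed. A marker was on with at least 1 UMI and 1 per 10000 UMIs, and a cell joined a class with at least 3 markers on and at least 2 more than for any other class. Counts were summed per class and library. A gene had to reach 20 UMIs in all and a mean of 20 CPM, and genes were compared as log2 ratios of CPM + 10. Clusters came from scanpy 1.11.5 (2000 variable genes without the members, 30 components, 15 neighbours, Leiden resolution 1), and the comparison was tested on simulated data. Count intervals are exact (Poisson or conditional binomial) with scipy 1.17.1. Genes were named by a rule: the mt- members, and nuclear members that led a complex by CPM or stood highest or lowest in log2 ratio with both pairs of libraries of equal sign, or were isoforms. Members and lists were chosen with earlier results of these data known. There were 13 alternatives, among them an mt- limit of 20% and a minimum of 1500 UMIs. The closing section gives those that moved a count.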

Additional observations from a re-analysis of the deposited data

Results flagged for a closer look

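Atp5o, a stalk subunit gene of ATP synthase, moved in opposite directions in a pair of classes. Its log2 ratio of LNP-cGAMP against PBS was -0.74 in neutrophils and 0.60 in T cells, both past 1.5-fold. The T cell call was lost with CPM over nuclear-encoded genes, with median-of-ratios scaling and with classes from clusters. The difference was not tested, since each treatment is 1 library, and the T cell value of PBS comes from 54 cells. Neutrophils of PBS are also the cells for which subtraction of free RNA turned the mt- sum.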

How the results depend on the processing

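Of 756 recomputed counts of members past 1.5-fold (60 counts, 13 alternatives), 647 stayed within 1.5 times the main count and 109 did not. The mt- limit of 20% and the minimum of 1500 UMIs moved none of these counts beyond 1.5 times. The summed mt- CPM of LNP-cGAMP against PBS kept its sign under the 11 alternatives run in macrophages (-1.69 to -1.37) and T cells (-0.58 to -0.42). In neutrophils it ran from -0.95 to 1.01, and those of anti-PD-L1 (0.26, range -0.22 to 1.93) and the combination (-0.35, range -0.38 to 1.44) against PBS changed sign too. Where no cause is named, the cause was not tested. Without an mt- limit, the neutrophil mt- sum of the combination against anti-PD-L1 turned from -0.61 to 0.66, with 0 mt- members lower in place of 8 and 8 higher in place of 0. Against PBS 0 in place of 5 were then lower and 10 in place of 0 higher, and the macrophage count against anti-PD-L1 went from 1 lower to 0. With CPM over nuclear-encoded genes, 1 nuclear member in place of 0 was lower in LNP-cGAMP against PBS in macrophages and in T cells, and 0 in place of 1 higher in T cells. With median-of-ratios scaling, nuclear members lower went from 0 to 2 (macrophages) and from 17 to 11 (neutrophils) in LNP-cGAMP against PBS, and from 16 to 2 in the neutrophils of the combination against PBS, with 1 in place of 0 higher. There 1 in place of 0 mt- members was higher in anti-PD-L1 neutrophils, and T cells had 5 in place of 1 mt- member lower, 1 in place of 0 nuclear lower and 0 in place of 1 higher in LNP-cGAMP against PBS, and 0 in place of 1 nuclear higher in the combination against anti-PD-L1. With each cell weighted equally, mt- members lower in the combination went from 4 to 7 (against PBS) and from 1 to 3 (against anti-PD-L1) in macrophages and from 8 to 4 in neutrophils (against anti-PD-L1). T cells had 3 mt- lower and 6 nuclear higher in place of 1 and 1, and neutrophils 11 in place of 4 nuclear lower in anti-PD-L1 and 1 in place of 0 higher in the combination, both against PBS. With free RNA subtracted (share from all other lists), mt- members lower in the combination of macrophages went from 4 to 1 against PBS and from 1 to 0 against anti-PD-L1. In neutrophils, mt- members lower went from 8 to 1 (LNP-cGAMP) and from 5 to 1 (combination) against PBS, and those higher from 0 to 6, 9 and 8 (LNP-cGAMP, anti-PD-L1 and combination), and the sum of LNP-cGAMP turned from -0.76 to 1.01. Nuclear members lower went from 17 to 2, from 4 to 0 and from 16 to 5, those higher from 1 to 14, from 0 to 12 and from 0 to 9, and those lower in the combination against anti-PD-L1 from 0 to 11. T cells had 1 in place of 0 nuclear lower (LNP-cGAMP against PBS) and 0 in place of 1 higher (combination against anti-PD-L1). With the share from lists no higher in the class than among near-empty barcodes, chosen after seeing the data, the macrophage counts were again 1 and 0. Neutrophil mt- members lower went from 8 to 4 and from 5 to 3, and 7 in place of 0 were higher in anti-PD-L1. Nuclear members lower there went from 4 to 9, from 16 to 28 (with 1 in place of 0 higher) and, against anti-PD-L1, from 0 to 13. A pseudocount of 1 CPM gave T cells 1 in place of 0 nuclear lower (LNP-cGAMP against PBS) and 2 in place of 1 higher (combination against anti-PD-L1). With no filter on low values, T cells had 2 in place of 1 nuclear higher, and neutrophils 1 in place of 0 higher in anti-PD-L1 and 1 in place of 0 lower in the combination against anti-PD-L1. With classes from Leiden clusters, T cells had 1 in place of 0 nuclear lower and 0 in place of 1 higher (LNP-cGAMP against PBS) and 0 in place of 1 mt- higher (combination against anti-PD-L1). Neutrophils then had 9 in place of 4 nuclear lower (anti-PD-L1), 1 in place of 0 higher (combination against PBS) and 4 in place of 8 mt- lower (combination against anti-PD-L1). In cells called male, which left under 20 combination neutrophils and T cells and so gave no value there, mt- members lower in the combination of macrophages went from 4 to 9 and from 1 to 7. Nuclear members lower there went from 0 to 2, 1 and 1 (against PBS, anti-PD-L1 and LNP-cGAMP), and 1 in place of 0 was higher against LNP-cGAMP. Neutrophils had 0 in place of 1 nuclear higher (LNP-cGAMP), 1 in place of 0 mt- lower and 18 in place of 4 nuclear lower (anti-PD-L1), and T cells 2 in place of 1 nuclear higher. In cells between the quartiles of UMI totals, mt- members lower in the combination of macrophages went from 4 to 9 and from 1 to 8, and in neutrophils from 8 to 4 against anti-PD-L1, with 1 in place of 0 nuclear lower. Nuclear members lower in the combination against PBS went from 16 to 9 in neutrophils, and T cells had 2 in place of 1 higher. In the remaining comparisons, the neutrophils of the combination against LNP-cGAMP had 11 in place of 1 mt- member higher with no mt- limit, 3 with median-of-ratios scaling, 2 with cells weighted equally, 6 between the UMI quartiles, and 0 with clusters and with either subtraction. Nuclear members there went from 0 to 9 and 11 lower with the subtractions (all and restricted lists), and from 0 to 1, 1 and 3 higher with cells weighted equally, a pseudocount of 1 CPM and between the UMI quartiles. In T cells of anti-PD-L1 against PBS, 2 in place of 1 mt- member were lower with CPM over nuclear-encoded genes, median-of-ratios scaling and a pseudocount of 1 CPM, and 0 with subtraction from all lists. Nuclear members higher there went from 3 to 1 (no mt- limit, median-of-ratios scaling), 0 (clusters) and 5 (UMI quartiles), and lower from 0 to 3 (male) and 1 (UMI quartiles). In T cells of the combination against PBS, 1 in place of 0 mt- member was lower with median-of-ratios scaling and cells weighted equally, and 1 higher between the UMI quartiles. There 1 in place of 0 nuclear members was lower with median-of-ratios scaling, cells weighted equally, subtraction from all lists, no filter and clusters, and 13 (cells weighted equally) or 0 (clusters) in place of 6 were higher. Against LNP-cGAMP, 1 in place of 0 nuclear members was higher with cells weighted equally. No paired analysis was possible because each group has 1 library, and for the same reason no library could be left out. Depth limits the T cells of PBS (54 cells), mt-Nd3 in neutrophils (32 UMIs after LNP-cGAMP) and mt-Atp8 in T cells (19 and 57 UMIs).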

Other observations

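The other gates held too few cells for a comparison, and their mt- shares are given as values. NK cells (31, 100, 30 and 35 cells) had 5.28% with PBS, 4.13% after LNP-cGAMP, 5.11% after the antibody and 4.37% after both. B cells (12, 14, 30 and 21 cells) had 7.48%, 6.54%, 7.68% and 5.92%. LLC tumour cells (36, 9, 23 and 23 cells) had 5.27%, 3.36%, 4.57% and 4.85%. In these 3 gates both libraries with LNP-cGAMP lay below PBS under the mt- limit. Without an mt- limit this held in NK cells only. The combination then lay above PBS in B cells (8.78% against 8.27%) and in LLC tumour cells (6.06% against 5.61%). LNP-cGAMP alone stayed below PBS in both, at 6.98% and 3.48%. Among LLC tumour cells the combination lay above anti-PD-L1 under the limit too. Conventional dendritic cells (9, 2, 18 and 4 cells) had 2.82%, 0.366%, 2.80% and 2.67%, and 17 erythroid cells of PBS had 0.346%.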
